A study of Mus musculus with 5 samples.

Results

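In uninjured muscle, 71 of the 5176 annotated cells carried the authors' label Neural/Glial/Schwann cells, which is 1.37% (95% exact binomial interval 1.07 to 1.73). They were taken by that label alone. Set against their marker genes, the 71 cells were not 1 kind of cell. By rules given below, 43 carried genes of Schwann cells and other glia, 16 carried genes of muscle fibres and no more than 1 glial gene, 1 carried both, and 11 carried neither set at the required level. Of those 11, 10 carried genes of fibro-adipogenic progenitors, abbreviated FAPs, which are stromal cells that make much of the collagen matrix. The label's name fits the first class, and the others are called here by the genes they carry.

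The study followed single cells of the tibialis anterior, a shin muscle, through regeneration after an injection of notexin, a phospholipase from snake venom that kills the fibres. The day 0 cells described here came from female C57Bl/6 mice of 4 months without injury, and days 2, 5 and 7 after notexin (females of 7 months, females of 4 months and males of 4 months) are used only where stated. The muscle was digested with collagenase D and dispase II, red cells were lysed, and cells that took up Calcein-AM and excluded propidium iodide were sorted as live. Droplet libraries (10x 3' v2) counted each mRNA molecule once by its molecular tag (UMI). The 2 sequencing runs of day 0 share 1 matrix whose cells cannot be assigned to a run, so there is no replicate and no test. Values in brackets are 95% intervals that cover counting error only, and a level is given in UMIs per 1000000 UMIs (cpm). Digestion and the sort bear on which cells were counted.

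Schwann cells are the glia of peripheral nerves. Myelinating ones wrap an axon in a compact sheath built from proteins such as Pmp22 and Mbp, while non-myelinating ones hold bundles of thin axons or cap the nerve ending at the muscle, and all depend on the transcription factor Sox10. In muscle both lie along the motor and sensory nerves that enter the tissue. A muscle fibre is a giant cell with many nuclei, filled with contractile proteins such as the skeletal actin Acta1, and an intact fibre is too large for a droplet.

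The 71 cells held 311163 UMIs, with 1462 to 23608 per cell and a median of 3352, against a median of 3838 in the 5105 cells of the other 6 day 0 labels. The label was presumably drawn from the same expression values, so levels against the other labels are descriptions and no test of them. The transcription factor Sox10 stood at 212 cpm (164 to 270) in the 71 cells, against 0.545 cpm (0.282 to 0.952) in all other labels. The myelin gene Mbp stood at 951 cpm (846 to 1066) against 5.77 cpm (4.81 to 6.86). The muscle actin Acta1 stood higher than either, at 16519 cpm (16070 to 16977) against 58.6 cpm (55.4 to 61.9). Sox10 had a UMI in 29 of the 71 cells, Mbp in 35 and Acta1 in 33, so none of the 3 was carried by all.

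Across the other day 0 labels, Mbp was highest in immune cells, at 34.1 cpm (25.9 to 44.2) with a UMI in 51 of 297 cells, and ran from 2.88 cpm in FAPs to 14.1 cpm (3.83 to 36.0) in smooth muscle cells elsewhere. Sox10 was at 3.51 cpm in smooth muscle cells from 1 UMI, at 0.967 cpm in endothelial cells and 0.490 cpm in FAPs, and at 0 UMIs in immune cells, tenocytes and platelets. Acta1 lay between 29.3 cpm (15.1 to 51.2) in tenocytes and 64.8 cpm (56.1 to 74.4) in endothelial cells, and all 6 labels held it. With each cell thinned to 1000 UMIs, Mbp had a UMI in 33.8% (23.0 to 46.0) of the 71 cells, against 0.171% (0.0627 to 0.371) of FAPs, a type that should lack it. Acta1 had one in 36.6% (25.5 to 48.9), against 6.14% (5.37 to 6.99) of FAPs. Without thinning these shares were 49.3% against 1.31% for Mbp and 46.5% against 20.6% for Acta1, at median depths of 3352 and 4452 UMIs.

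A gene was counted as measured where it had at least 10 UMIs in the 71 cells or would have had 10 there at the level of the other labels. Of 5189 such genes, 914 (17.6%) were at least 2-fold higher in the 71 cells and 777 (15%) at least 2-fold lower, and the median log2 ratio was 0.03. Of the 15 genes with the largest ratios, 9 are known from Schwann cells or other glia and 6 from muscle fibres. Among the glial ones were Fabp7, a fatty acid binding protein of glia, with a log2 ratio of 10.60 (8.67 to 13.69), the potassium channel Kcna1 at 9.80, the myelin lipid raft protein Mal at 9.79, Cmtm5 at 9.77, the receptor Gpr37l1 at 9.53, the phosphatase Ptprz1 at 8.95, the collagen Col20a1 at 8.88 and the claudin Cldn19 at 8.87. The fibre ones were Ankrd2, a stretch-responsive protein of the sarcomere, at 9.98 (8.54 to 11.90), the actin-binding protein Abra at 9.90, the muscle LIM protein Csrp3 at 9.21, the carbonic anhydrase Car3 at 9.08, the small heat shock protein Hspb7 at 9.02 and the ADP-ribosyltransferase Art1 at 8.93. Fabp7, Ankrd2, Abra, Mal and Cmtm5 had 2 to 4 UMIs in all other labels together.

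The 10 genes with the smallest ratios belong to antigen presentation, macrophages, granulocytes, tendon and red cells. The antigen presentation genes Cd74, H2-Aa, H2-Ab1 and H2-Eb1 had log2 ratios of -5.50 (-6.28 to -4.82), -4.93, -4.47 and -4.37. The complement genes C1qb and C1qa of macrophages stood at -5.33 and -4.17 from 1 and 2 UMIs in the 71 cells. The tendon proteoglycan Fmod stood at -4.83 and the haemoglobin genes Hba-a1 and Hbb-bt at -4.34 and -4.24. The granulocyte gene S100a8 stood at -4.38 (-6.65 to -2.83), from 3 UMIs in 3 of the 71 cells and 4409 in 162 of the other cells. Its mean normalized log value did not share that direction, at 0.0515 in the 71 cells and 0.0489 in the others. All 12 FAP list genes and all 12 endothelial list genes were at least 2-fold lower, with medians of -1.62 and -1.75. FAPs were 3516 of the 5105 other cells, and the FAP count was 4 of 12 with the other labels weighted the same, and 7 without the cells that carry fibre genes. The immune list had 8 of 9 measured genes lower and 1 higher, the lysozyme gene Lyz2, and with the labels weighted the same 0 were higher. Of these 9 immune genes 7, and of the 12 endothelial genes 2, were measured only through the other labels, so they could not have counted as higher.

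The cells were divided by 2 rules. A cell carried glial genes if at least 3 of 18 genes had a UMI (among them Mbp, Mag, Prx, Ncmap, Cldn19, Drp2, Gjb1, Egr2, Sox10, Cdh19, Foxd3, Erbb3, Kcna1, S100b, Fxyd3 and Gfra3). Of these 18, Egr2 had the highest mean normalized log value in the other day 0 labels, at 0.137, against 0.431 in the 71 cells. S100b came next there, at 0.0577. The part of Egr2 in the counts for other labels and days was not tested. A cell carried fibre genes if 31 contractile and metabolic fibre genes, Acta1 among them, made up at least 5% of its UMIs. Glial genes were carried by 44 of the 71 cells, or 62.0% (49.7 to 73.2), and fibre genes by 17, or 23.9% (14.6 to 35.5). The fibre limit fell in a gap, with the cell just under it at 1.94% and the one just over it at 13.7%. The glial limit fell in no gap: 18 cells had 0 glial genes, 7 had 1, 2 had 2, 1 had 3 and 5 had 4. The 44 cells with glial genes held 4 to 141 UMIs of them, with a median of 23.

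**Figure D1:**
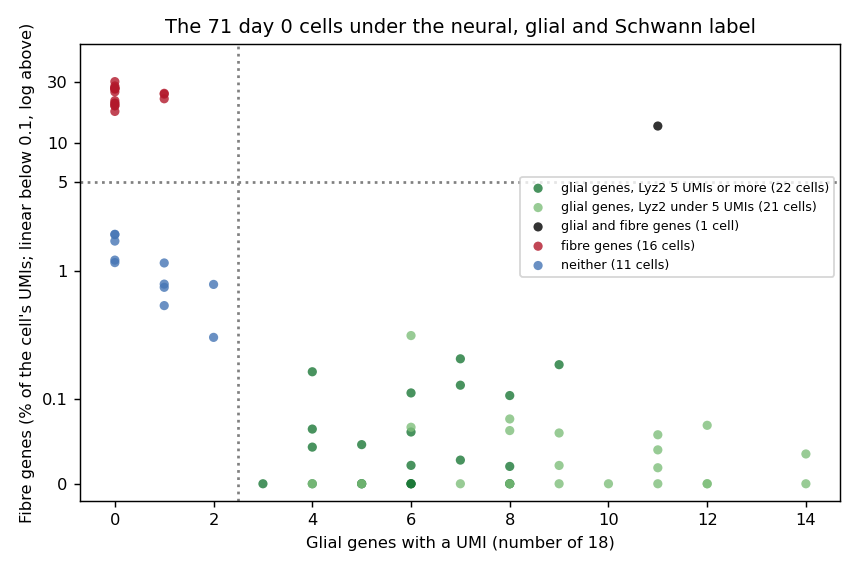
Each point is 1 of the 71 cells, with the number of the 18 glial genes that had a UMI on the x axis and the share of UMIs from fibre genes, in percent, on the y axis (linear below 0.1, logarithmic above). Dotted lines lie just under the limit of 3 genes and at the limit of 5%: 16 cells sit at 17.8% to 30.4% with 0 or 1 glial gene, 43 sit at 0.312% or less with 3 to 14 glial genes, and 1 cell is past both limits.

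Among the 5105 other day 0 cells, 14 met the glial rule and 0 met the fibre rule. For the 3516 FAPs the exact interval of that 0 reaches 0.105%. The 14 were 11 FAPs, 2 smooth muscle cells and 1 immune cell, and they held 3 to 18 UMIs of glial genes with a median of 4. Only 2 of them had 5 or more glial genes, 1 under the FAP label and 1 under the smooth muscle label, against 38 of the 71 cells. The largest fibre share in any other cell was 3.91%, in an immune cell, and the medians of the 6 labels were 0.0234% to 0.0373%. After thinning to 1000 UMIs, which every day 0 cell reached, 37 of the 71 cells and 1 other cell met the glial rule, and 17 and 0 met the fibre rule.

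The 43 cells with glial genes and without fibre genes held 150671 UMIs. The genes of the rule are high in them by construction, so the genes outside it are given here. Of 3220 measured genes 21.1% were at least 2-fold higher than in all other labels and 13.2% lower, with a median log2 ratio of 0.32. Myelin list genes outside the rule were higher in 4 of 4 measured. Pmp22, a protein of compact myelin, stood at 3106 cpm against 426 cpm, with a log2 ratio of 2.87 (2.73 to 3.0), Cnp at 5.04 (4.71 to 5.36), Pllp at 6.04 (5.38 to 6.67) and Mal at 10.62 (9.16 to 12.56). Schwann lineage genes outside the rule were higher in 6 of 6, among them the secreted protein Egfl8 at 7.14 (6.69 to 7.59), the membrane glycoprotein Gpm6b at 4.34 (4.12 to 4.55) and Adgrg6, the receptor that starts myelination, at 6.36 (5.44 to 7.24). Of these 10 genes 8 were measured only through their UMIs in the glial cells themselves, so they could not have counted as lower.

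Genes of non-myelinating glia outside the rule were at least 2-fold higher in 8 of 10 measured, 8 of them measured only through the glial cells. The adhesion molecules Ncam1 and L1cam stood at 4.91 (4.51 to 5.28) and 5.54 (4.78 to 6.25) and the stem cell transcription factor Sox2 at 10.78 (8.77 to 13.90). Apod, a lipid carrier that FAPs and tenocytes also hold, stood at 0.24 (0.04 to 0.43). Ngfr, the low-affinity neurotrophin receptor, had 10 UMIs in 3 of the 43 cells, 7 of them in 1 cell. Nefm, Prph and Rbfox3, genes of neurons, had no UMI in the 71 cells, and the neuronal tubulin Tubb3 had 22 UMIs in 2 of the 43 cells. Uchl1 and Stmn2 had 3 and 5 UMIs in the 71 cells. These 6 genes are the members of the 13 on the neuron list that were in the table.

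The genes that glia use to signal to axons and to hold their basement membrane were mixed. Lgi4, a secreted protein that Schwann cells need for axon sorting, stood at 5.10 (4.76 to 5.43) and the growth factor Ptn at 5.68 (5.47 to 5.89). Of the 12 genes on the signal list that were in the table, these 2 were the measured ones, both only through the glial cells, so they could not have counted as lower. The laminin receptor dystroglycan, Dag1, stood at 3.41 (3.12 to 3.68). Of 13 measured genes for basement membrane and adhesion 2 were higher and 3 lower, with the matrix genes Lamb2, Col4a1 and Nid1 at -1.41, -1.16 and -1.13, and the list's median was -0.15. The 18 dissociation stress genes, which digestion of tissue induces, had a median of 0.21 with 0 past 2-fold, and the mitochondrially encoded genes a median of 0.62.

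**Figure D2:**
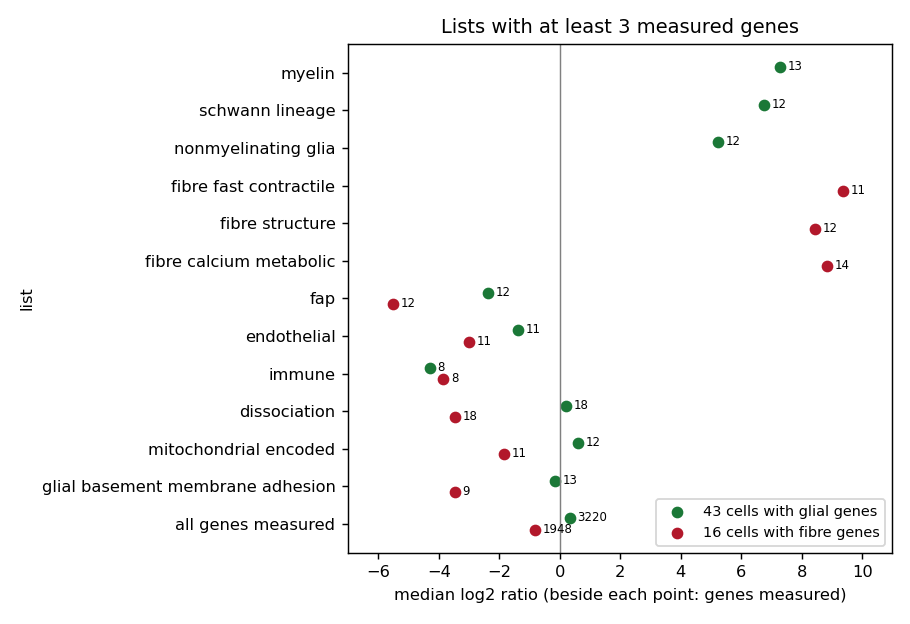
The median log2 ratio of each list to all other day 0 labels is on the x axis, for the 43 cells with glial genes (green) and the 16 with fibre genes (red), with the number of measured genes beside each point. The lists hold the genes used to form the classes. Over all measured genes the medians are 0.32 and -0.82.

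When the 44 cells with glial genes were set against the other 27 cells under the label, the 10 largest ratios included those of Kcna1, Mbp and S100b, which the rule used, and of Gatm, Lyz2, Fibin, Plekhb1 and Sfrp5. Gatm, an enzyme of creatine synthesis, had 294 UMIs in 20 of the 44 cells and 0 in the 27. With that 0 set to 3 UMIs the ratio was 98.4-fold, a log2 ratio of 6.62, and the lower end of the interval was 6.31. Lyz2 stood at 6957 cpm against 89.8 cpm, and Sfrp5, a secreted Wnt inhibitor, at 1192 cpm against 19.2 cpm.

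The 43 cells with glial genes differed among themselves in Lyz2, the lysozyme gene used as a mark of macrophages and granulocytes. They are split here by that gene after its values were seen, so the split is a description, and Lyz2 itself is high on 1 side by construction. Lyz2 had at least 5 UMIs in 22 cells, with 5 to 368 and a median of 34, and fewer in 21, of which 17 had 0. The limit fell in no gap, since the nearest cells had 5 and 4 UMIs. The 22 cells were deeper, at a median of 3628.5 UMIs against 2123. Their Lyz2 level was 12666 cpm, or 9090 cpm without the cell with 368 UMIs. It stood at 11218 cpm (11058 to 11380) in immune cells, at 31.3 cpm in FAPs and at no more than 166 cpm (129 to 211) in the other labels.
The other 11 genes of the immune list did not follow Lyz2. Together they had 8 UMIs in the 22 cells, or 94.5 cpm (40.8 to 186), and 11 in the 21, or 167 cpm (83.2 to 298). Immune cells held 49489 cpm (49152 to 49828) of them and FAPs 114 cpm (108 to 119). The leukocyte surface gene Ptprc had 0 UMIs in the 22 cells, as had C1qa and C1qb. Csf1r, the macrophage growth factor receptor, also had 0, and the myeloid adaptor Tyrobp had 1. The paralog Lyz1 stood at 189 cpm in the 22 cells, 0 in the 21 and 2042 cpm in immune cells, and reads shared between Lyz1 and Lyz2 could be split between them.

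Of 14 measured myelin list genes 13 were at least 2-fold lower in the 22 cells than in the 21 and 0 higher, with a median log2 ratio of -3.28. Of these 14, 10 were measured only through the 21 cells and could not have counted as higher. Over all 2046 measured genes 16.4% were lower and 17.2% higher, with a median of 0.02. The FAP list also had 7 of 11 measured genes lower in the 22 cells, with 2 of the 11 measured only through the 21. The part of FAP genes in these values was not tested. Mbp stood at 319 cpm (210 to 464) in the 22 cells, against 3877 cpm (3416 to 4382) in the 21, a log2 ratio of -3.60 (-4.23 to -3.03). Cnp had a log2 ratio of -2.98 (-3.91 to -2.15), Pmp22 -1.37 (-1.66 to -1.09) and Mal -4.72 (-7.81 to -2.77). Ncmap, a protein of non-compact myelin, had 0 UMIs in the 22 cells and 81 in 10 of the 21, and Cldn19 had 0 and 28. Among the 10 smallest ratios were those of Gatm at -8.40 (-13.71 to -5.91), the ion pump regulator Fxyd6 at -5.61, Emid1 at -5.17, Fam178b at -5.00, Lgals3 at -4.97, Csrp2 at -4.88, and Bcas1 and the myelin scaffold protein periaxin, Prx, at -4.82 each. Gatm had 1 UMI in the 22 cells and 263 in 18 of the 21.

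The start of the Prx gene is shown with those of 2 fibre genes, as examples of the myelin and fibre sets that separate the cells. The letters are the 250 bases before each annotated start, 5′ to 3′ on the strand of the gene, from RefSeq on GRCm38.p6, and capitals mark the motif CANNTG, the E-box that muscle and other helix-loop-helix factors can bind (it reads the same on both strands).
Prx, chr7:27499074-27499323, plus strand: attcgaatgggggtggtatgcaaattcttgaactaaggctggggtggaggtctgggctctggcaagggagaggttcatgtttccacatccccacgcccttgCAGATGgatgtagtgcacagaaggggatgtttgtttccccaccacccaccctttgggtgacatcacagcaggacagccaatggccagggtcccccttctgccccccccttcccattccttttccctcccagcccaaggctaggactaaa
Acta1, chr8:123894776-123895025, minus strand: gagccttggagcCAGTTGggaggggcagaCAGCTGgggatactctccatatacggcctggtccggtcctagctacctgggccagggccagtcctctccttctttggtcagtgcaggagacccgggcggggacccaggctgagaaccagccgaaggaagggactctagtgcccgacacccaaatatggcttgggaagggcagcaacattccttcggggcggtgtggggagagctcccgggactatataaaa
Tnnc2, chr2:164779735-164779984, minus strand: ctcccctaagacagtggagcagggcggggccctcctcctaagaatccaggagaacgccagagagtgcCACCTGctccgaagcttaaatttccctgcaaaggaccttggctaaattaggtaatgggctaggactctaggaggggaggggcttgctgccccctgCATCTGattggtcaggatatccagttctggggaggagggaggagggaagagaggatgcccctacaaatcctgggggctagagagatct
The motif occurred 1 time in the Prx window and 2 times in each of the others. At least 1 window held it for 7 of the 9 glial rule genes and 21 of the 23 fibre rule genes with a window, against 66.2% of all 32851 windows. Genes with several annotated starts have several windows, so the counts of genes and the share of windows are unlike measures. Enrichment was not tested. A match is a string of letters, not a bound site.

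Sox10 was at 425 cpm (298 to 589) in the 22 cells and 348 cpm (221 to 523) in the 21, and these intervals overlap. After Lyz2, the genes with the largest ratios of the 22 to the 21 were the cholinesterase Bche at 5.45 (2.91 to 10.78), the peptide-amidating enzyme Pam at 4.81, Ajap1 and Cryl1 at 4.64 each, Ppm1h at 4.50, Prex1 at 4.45, Fam181b and the lipase Pla2g7 at 4.17 each, and the cyclin Ccnd1 at 4.07. All 9 had 1 or 2 UMIs in the 21 cells, so their intervals are wide. Col20a1 stood at 1701 cpm (1435 to 2003) in the 22 and 333 cpm (209 to 504) in the 21, and Ptn at 2588 and 591 cpm. The 21 cells were not alike in these genes. All 22 Col20a1 UMIs of the 21 came from 5 cells, which also held 34 of their 39 Ptn UMIs and 185 of their 222 Apoe UMIs, but 11 of their 256 Mbp UMIs, at 1 to 5 each. The other 16 had 0 UMIs of Col20a1 and 1 to 34 of Mbp. Ncam1 stood at 721 cpm in the 22 and 136 cpm in the 21, and Pou3f1, a transcription factor of promyelinating Schwann cells, at 1477 and 621 cpm. The list of non-myelinating glia genes, which holds Ncam1, was mixed. Of its 12 measured genes 4 were at least 2-fold higher in the 22 and 6 lower, with a median of -1.29. Of these 12, 3 were measured only through the 22 and 5 only through the 21. Over all measured genes 17.2% were higher and 16.4% lower. Apoe, the lipoprotein that glia secrete, stood at 8625 cpm in the 22 and 3362 cpm in the 21. The log2 ratio of Cdh19, a cadherin of Schwann cell precursors, was 0.92 (-0.01 to 1.93).

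**Figure D3:**
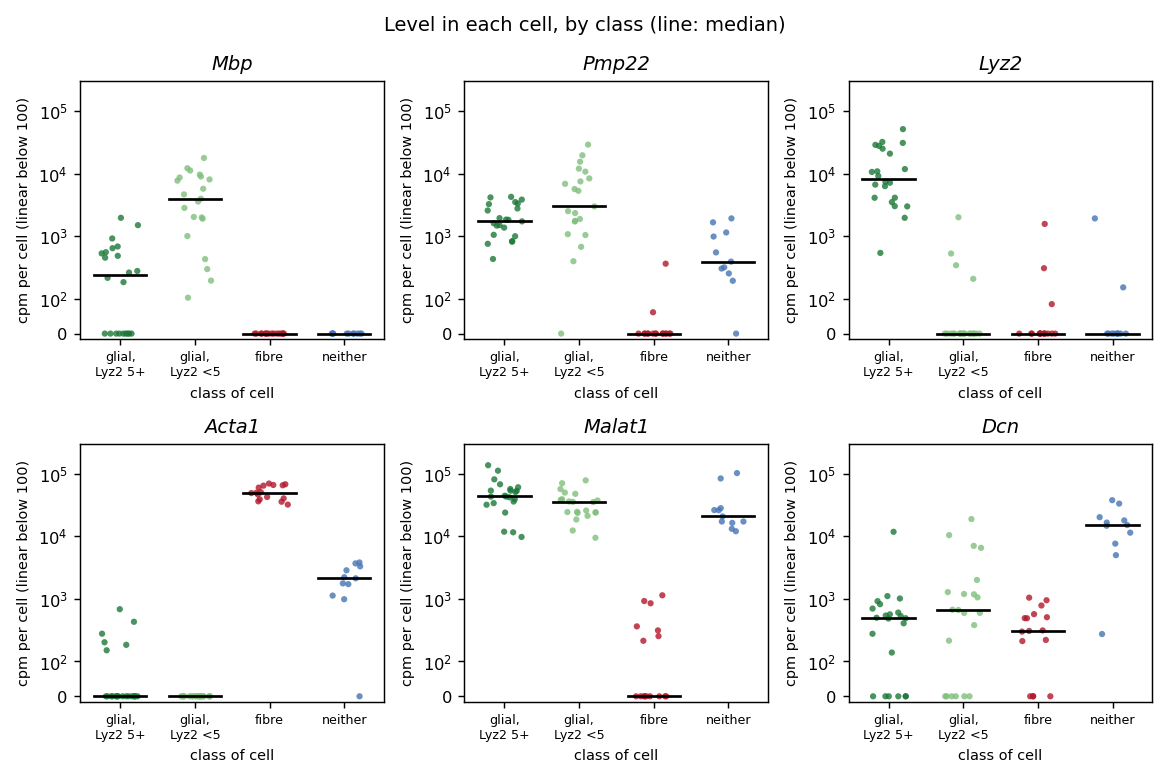
Each point is 1 cell, with the level of a gene in cpm on the y axis (linear below 100 cpm, logarithmic above) and the class on the x axis, and the black line is the median over the cells of a class. The 1 cell with both gene sets is left out. Mbp reaches 1964 cpm in the 22 glial cells with at least 5 UMIs of Lyz2 and 17720 cpm in the other 21, and Malat1 is at 0 to 1141 cpm in the 16 cells with fibre genes.

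The 16 cells with fibre genes and no glial set held 94435 UMIs, 1751 to 23608 per cell, of which fibre genes made up 17.8% to 30.4% with a median of 24.5%. Acta1 had 69 to 1517 UMIs in each, or 32039 to 69458 cpm with a median of 49226 cpm, and the fast troponin C gene Tnnc2 was at 20414 to 39638 cpm. Mbp and Sox10 had no UMI in any of the 16, and 15 of the 18 glial rule genes had none. Cells with at least 3 of those 18 genes were kept out of this class, so this is in part by construction. Of 1948 measured genes 29.9% were at least 2-fold higher than in all other labels and 48.3% lower, with a median log2 ratio of -0.82.
Genes of fibre structure outside the rule were higher in 9 of 9 measured, 8 of them measured only through these cells. Tpm1 and Tpm2, the tropomyosins of the thin filament, stood at 25128 and 14772 cpm, against 125 and 51.0 cpm in the other labels. The Z-disc proteins Myot and Actn2 had log2 ratios of 10.36 (9.78 to 10.98) and 10.33 (9.62 to 11.12), and desmin, Des, 7.30 (7.05 to 7.54). Metabolic genes outside the rule were higher in 3 of 3, 1 of them measured only through these cells. The glycolytic enzyme Aldoa stood at 5.60 (5.53 to 5.66) and the ATP/ADP carrier Slc25a4 at 4.45 (4.36 to 4.54).

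Of the 8 slow fibre genes on the list, 5 had 0 UMIs in the 16 cells, namely the slow myosin Myh7, the slow troponins Tnnt1, Tnni1 and Tnnc1, and the light chain Myl2. The other 3 were Myoz2, a Z-disc protein, with 20 UMIs in 7 cells and a log2 ratio of 8.73 (7.60 to 9.94), Myl3 with 9 UMIs in 2 cells, and the calcium pump Atp2a2 with 1. Among the myosin heavy chains, the motor proteins that define fibre types, 115 of 121 UMIs (95.0%, 89.5 to 98.2) were from Myh1, the chain of type IIX fibres, 4 from Myh4 of type IIB and 2 from Myh2 of type IIA. In the other day 0 labels, which held 108 such UMIs, Myh1 made up 33.3% (24.6 to 43.1) and Myh4 57.4% (47.5 to 66.9). Of the 115 Myh1 UMIs 90 came from 3 cells, and the other 13 held 25 of Myh1, 3 of Myh4 and the 2 of Myh2. The cells labelled Mature skeletal muscle at days 5 and 7, the nearest fibre label in the series, had Myh1 at 31.2% (24.7 to 38.3) of 189 and 51.9% (45.4 to 58.3) of 243. Their matrices are other libraries of other mice, so the difference was not tested.
Fibre shares had a median of 24.5% in the 16 cells, against 20.9% and 34.4% in those 62 and 56 later cells, and Acta1 stood at 52036 cpm against 15816 and 48656 cpm. Car3 stood at 9975 cpm in the 16 cells, against 1939 and 726 cpm at days 5 and 7, and Mb, the oxygen carrier myoglobin, at 10378 cpm against 2345 and 3250 cpm. The regulatory light chain Mylpf stood at 25753 cpm in the 16 cells, against 39746 and 67371 cpm.

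The 10 genes with the largest ratios in the 17 cells with fibre genes over the other 54 cells under the label were Myh1, the calcium pump Atp2a1, Abra, Csrp3, Jsrp1, Tnnt3, the mitochondrial creatine kinase Ckmt2, Myl1, Cox6a2 and Ddit4l, with log2 ratios between 6.35 and 6.95. The fibre rule used Myh1, Atp2a1, Tnnt3, Ckmt2, Myl1 and Cox6a2, so these are high in the 17 cells by construction. Abra, Csrp3, Jsrp1 and Ddit4l lie outside it. Of the rule genes, Tnnt3 and Myl1 stood at 19565 and 25504 cpm against 207 and 302 cpm. Genes of the neuromuscular synapse had few UMIs. Chrna1, Rapsn and Ache had 3, 6 and 3 UMIs in the 16 cells, Musk, Chrne and Chrnb1 had 0, Colq had 1, and none reached the 10 UMIs that count as measured. Myod1, a transcription factor of muscle, had 12 UMIs in 7 of the 16 cells, while the satellite cell genes Pax7 and Myf5 had 0.

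The 16 cells held little of several RNAs that other cells hold in plenty. Malat1, a long non-coding RNA kept in the nucleus, had 0 to 6 UMIs per cell and 21 in all, or 222 cpm (138 to 340). It stood at 42948 cpm (41563 to 44368) in the 22 glial cells with Lyz2 and 34119 cpm (32724 to 35557) in the other 21, against 19685 cpm in all other labels. Thinned to 1000 UMIs, 4 of the 16 cells (25%, 7.27 to 52.4) had a Malat1 UMI, against 99.5% of FAPs and 99.4% of endothelial cells. Xist, the nuclear RNA of the inactive X in females, had 0 UMIs in the 16 cells, against 640 cpm in all other labels. The stress and early response genes were lower in 18 of 18, with a median of -3.46 and Junb at -4.90 (-5.96 to -4.02). The mitochondrially encoded genes were lower in 11 of 11, with a median of -1.86. Of the 18 genes 14, and of the 11 genes 2, were measured only through the other labels, so they could not have counted as higher. Over all measured genes 48.3% were lower. The mitochondrial share that the authors give per cell had a median of 0.424% in the 16 cells, against 2.24% in the other labels, and 2 of the 16 were at 3.76% and 8.01%. At days 5 and 7 the cells labelled Mature skeletal muscle also had low Malat1, at 937 and 1642 cpm. The part of nuclear content, cell integrity or the sort in these values was not tested.

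The 1 cell with both sets had 4568 UMIs, 11 glial genes, 88 glial UMIs and 13.7% fibre genes. It had 13 UMIs of Mbp and 19 of Ncmap beside 85 of Acta1, and 97 of Malat1, so its Malat1 was unlike that of the 16. Its mitochondrial share was 11%. Whether this barcode held 1 cell or several was not tested.

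The 11 cells that met neither rule held 61489 UMIs and 907 to 3123 genes each. Of these, 10 had at least 3% of their UMIs from the 12 FAP genes, with 3.49% to 11.6% and a median of 8.28%, against a median of 8.22% in cells labelled FAPs. Dcn, the proteoglycan decorin, stood at 17678 cpm in the 11 cells, against 19316 cpm in FAPs, and the collagen Col3a1 at 5334 against 4037 cpm. These 10 cells held fibre genes at 0.536% to 1.94% of UMIs, while 7 of the 3516 FAPs were at 0.5% or more, with the highest at 1.59%. The 10 genes with the largest ratios of the 11 cells over all other labels were all fibre genes, Car3, Mb, Acta1, Tcap, Myl1, Tnnc2, Mylpf, Pvalb, Ckm and Tnni2, with log2 ratios of 4.74 to 6.34. Acta1 stood at 2179 cpm (1826 to 2581) against 58.6 cpm.
The remaining cell had 2 glial genes with 5 UMIs, 4 of Sox10 and 1 of Kcna1, so it missed the glial rule by 1 gene. It had 0.302% fibre genes and FAP genes at 0.412%. It also had 7 UMIs each of Lyz2 and Col20a1, which were high in the 22 cells. Malat1 had 62 to 305 UMIs in each of the 11 cells. Among the cells with glial genes, 4 also had FAP genes at 3% or more, 1 of the 22 with Lyz2 and 3 of the other 21, and these had 5315 to 9598 UMIs, above the medians of both groups. Without all 14 such cells, 40 of 57 cells carried glial genes and 17 fibre genes, a choice made after the data were seen.

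The makeup of the fibre RNA was set beside that in other labels. Acta1 made up 21.1% of fibre rule UMIs in the 16 cells and 20.3% in the 11, against 15.9% in all other labels. Mb made up 4.20% and 5.45%, against 2.32%, while Tnnc2 made up 12.4% and 14.4%, against 12.7%, and Ckm 6.91% and 6.35%, against 6.88%. The other rule genes are not given as shares, and some of them differed between the 16 and the 11. Beside 4914 and 134 UMIs of Acta1, Atp2a1 had 498 and 6, Ckmt2 249 and 2, and Pvalb 907 and 35. Whether the makeup was alike in the 16 and the 11 was not tested.

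**Figure D4:**
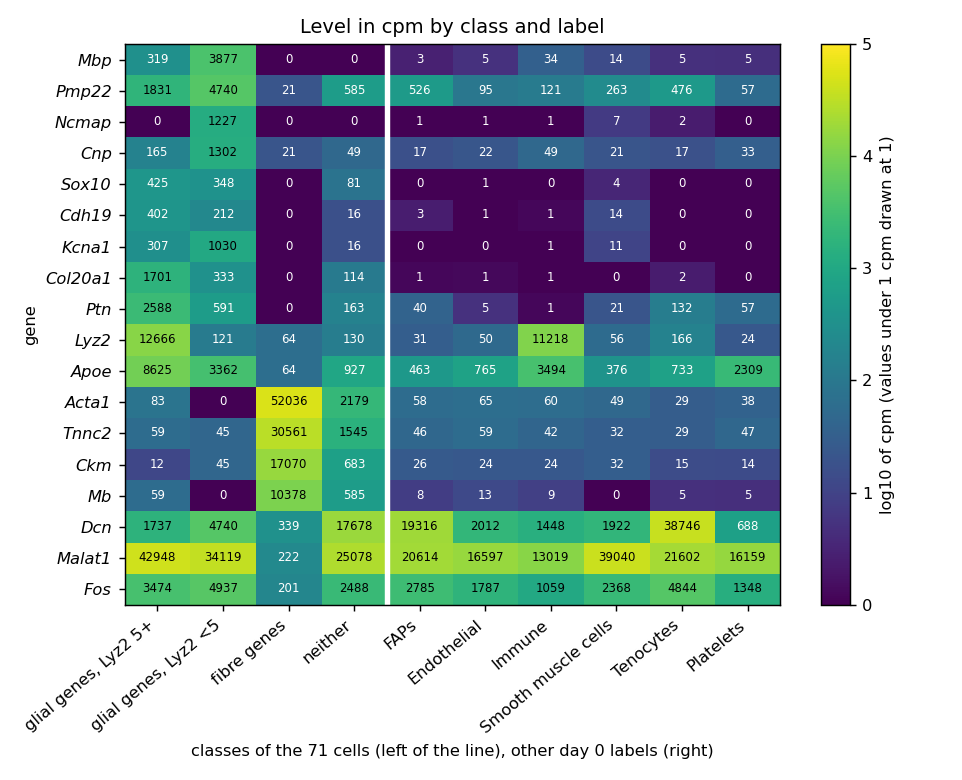
Each field gives the level of a gene (row) in cpm, with 4 classes of the 71 cells left of the white line and the other 6 day 0 labels right of it, and the colour is log10 of the level with values under 1 cpm drawn at 1. Lyz2 is at 12666 cpm in the first column and Mbp at 3877 cpm in the second, while Acta1 is at 52036 cpm in the column of fibre genes.

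No glial label was given after injury. By the same rule, glial genes were carried by 58 of 5176 cells at day 0, 26 of 4903 at day 2, 7 of 2164 at day 5 and 22 of 5680 at day 7. With at least 5 glial genes these counts were 40, 3, 2 and 4. Of those at days 2, 5 and 7, FAPs held 16, 5 and 11 cells with at least 3 glial genes and 2, 2 and 3 with at least 5. Thinned to 1000 UMIs, which 1 cell at day 5 did not reach, the rule was met by 38, 2, 2 and 4 cells. Each day is 1 matrix with its own depth, animals and mixture of cells, so differences between days were not tested. Of the 71 cell barcodes, 2 also occurred at a later day, and 12 to 40 barcodes were shared between day 0 and each later day.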

How the data were processed

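Day 0 cells and their labels came from the deposited metadata, in which the authors give a text label and a mitochondrial fraction for each barcode. Raw UMI counts, 1 row a gene symbol, are as the authors deposited them. The day 0 table of normalized values, also deposited, is on a natural log scale. Dividing each count by its cell's total, multiplying by 10000, adding 1 and taking that log gave those values for 311 genes to within 6.22e-15. Per the submitters' processing notes, Cell Ranger 2, Seurat 2.3.4, R 3.6.2 and mm10 were used. A total of 19 other metadata columns in the 4 tables were not used, and 14 day 0 barcodes without metadata were left out. No doublet caller was run here.

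Counts were summed over cells and given as cpm (scipy 1.17.1), with exact Poisson intervals for levels and Clopper-Pearson intervals for shares and for the split of counts behind a log2 ratio, all at 95%. A count of 0 was set to 3 in a ratio. A list gene was measured with 10 UMIs observed or expected, and a call means at least 2-fold. Genes named by rank had at least 100 cpm and 20 UMIs on the higher side, and for the largest ratios a UMI in 8 of the 71 cells or 5 cells of a class. The ranks were 15 and 10 for the label and 10 for each class. Ranks for the Lyz2 split and for the 11 cells, and the limit of 3% FAP genes, were added after the values were seen. Other genes are members of the 27 lists, of whose 287 genes 267 were in the table. The cells, rules and lists were chosen with earlier results of these data known. Alternatives were cells or labels weighted the same, the normalized values, the 5 deepest cells left out, other totals and other limits. Some genes that these rules rank or use are not reported here.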

Additional observations from a re-analysis of the deposited data

Results flagged for a closer look

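Of the 14 day 0 barcodes that have counts but no label, 1 had 14.7% of its 1772 UMIs from the 31 fibre genes. That is above the 3.91% of the highest cell under the other 6 day 0 labels and below the range of the 16 cells with fibre genes. Its mitochondrially encoded genes made up 43% of UMIs. None of the 14 barcodes had 3 glial genes with a UMI, and the most was 1.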

How the results depend on the processing

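Among 242 alternative values 174 stayed close to the reported one, 67 moved and 1 reversed. The reversal was S100a8, whose mean normalized log value was 0.0026 higher in the 71 cells. On that scale, which is not a log2 ratio, 27 other genes kept their direction. With summed or mean levels, 84 values for single genes stayed close and 26 moved, with no change of direction. With labels weighted the same, the 15 largest ratios lay between 6.85 and 11.01, against 8.87 and 10.60 as reported, and the 10 smallest between -7.91 and -3.77, against -5.50 and -4.17. Mbp, at 7.37 as reported, was at 6.44 with labels weighted the same and 8.25 with cells weighted the same, and Acta1, at 8.14, was at 7.49 without the 5 deepest cells. FAP list genes at least 2-fold lower were 4 with labels weighted the same and 7 without the cells that carry fibre genes, against 12, and immune list genes at least 2-fold higher were 0 with labels weighted the same, against 1. The number of cells with glial genes was 46 with a limit of 2 genes, 43 with 4 and 37 after thinning, and the number with fibre genes was 17 with limits of 2% and 10% and after thinning. Without the cells with FAP genes at 3% or more, a choice made after the data were seen, they were 40 and 17. Genes at least 2-fold higher in the 71 cells numbered 766 without the 5 deepest cells, 892 with labels weighted the same and 959 with cells weighted the same, and genes at least 2-fold lower 584, 907 and 877. Non-myelinating glia genes at least 2-fold higher fell to 4 with a minimum of 30 UMIs, against 9 with 10, because fewer genes were then measured. Fast contractile genes at least 2-fold higher were 7 without the 17 cells that carry fibre genes, against 11 with them, since that choice removes the cells by those genes. No paired analysis was possible because the day 0 cells form 1 matrix with no replicate. Depth limits the classes: the 22 glial cells with Lyz2 held 84637 UMIs, so the 3 UMIs set for a count of 0 equal 35.4 cpm there. They equal 45.4 cpm in the other 21 and 31.8 cpm in the 16 cells with fibre genes. The upper end of the Poisson interval for a 0 is higher, at 43.6 cpm in the 22 and 39.1 cpm in the 16.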
